A study of Mus musculus with 8 samples.

Results

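The genes described here flank Alkbh5 on mouse chromosome 11. They are the genes whose deposited start lies between 59500000 and 61600000 (GRCm38), without Alkbh5 itself, and which reached at least 1 FPKM (fragments scaled by transcript length and library size) in at least 2 of the 8 libraries. Of 79 such rows of the window, 45 passed that level filter, out of 16702 genes that passed it in a table of 38163. The other 34 rows, 21 of them pseudogenes and 5 protein-coding, were not tested. Membership was decided by the second-highest library. Just inside were 1700007J10Rik at 1.05 FPKM, Gm23341 at 1.1 and Gm16062 at 1.12. Just outside were Myo15 at 0.863 FPKM, Rps13-ps5 at 0.772 and Gm45605 at 0.77. The members comprise 34 protein-coding genes and 11 non-coding genes or pseudogenes, with 23 starting below Alkbh5 and 22 above it.

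Poly(A)-selected RNA was sequenced from whole testis of male mice in 4 groups of 2 libraries. These were Alkbh5-/- (KO) at postnatal day 12 (P12), wild type (WT) at P12, KO at P18 and WT at P18. According to the design text, P12 testis holds mainly leptotene and zygotene spermatocytes, and P18 testis mainly pachytene and diplotene ones. The strain and the way the Alkbh5 allele was made are not given in the sources used here, nor is it said that each library is a different animal. The p-values therefore measure the spread between these libraries, which may be technical.

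Alkbh5 encodes a demethylase that removes N6-methyladenosine from RNA. A knockout allele can also change its neighbours. A deletion can remove or expose regulatory DNA, an inserted cassette can act on nearby promoters, and a segment of the donor strain's chromosome stays linked to the allele. The segment itself is gene-dense. Its human counterpart is deleted in Smith-Magenis syndrome, and it holds Rai1 (a dosage-sensitive transcription regulator), Srebf1 (a regulator of lipid synthesis), Pld6 (a mitochondrial enzyme of piRNA biogenesis), Top3a (a topoisomerase) and Usp22 (a deubiquitinase of the SAGA complex).

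Alkbh5 (ENSMUSG00000042650, chromosome 11, 60536381 to 60558512, plus strand) had 0.0564 and 0.0218 FPKM in the KO P12 libraries, against 10.2 and 17.8 FPKM in WT P12. At P18 the level did not follow the labels. The libraries labelled KO replicate 2 and WT replicate 1 had 0.155 and 0.00985 FPKM, and those labelled KO replicate 1 and WT replicate 2 had 17.9 and 9.07 FPKM. KO P18 replicate 2 and WT P18 replicate 1 are therefore called the P18 libraries without Alkbh5 transcript, and KO P18 replicate 1 and WT P18 replicate 2 the P18 libraries with it. This split comes from a measured level, so differences between its sides are described without a test. Total counts lay between 58417668 and 71537841 per library. Markers of testis cell types were present in every library. The summed level of 10 Sertoli cell markers was 787 to 2231 FPKM, that of 10 spermatogonial markers 308 to 362 FPKM, and that of 7 Leydig cell markers 90.3 to 269 FPKM. In whole testis, fewer cells of a type and less RNA per cell cannot be told apart.

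The nearest protein-coding gene is Myo15, an unconventional myosin gene known from hair cells of the inner ear, which ends 8 kb before the Alkbh5 start. The nearest members are Drg2, whose end lies 67.6 kb before Alkbh5, and Llgl1, whose start lies 141.2 kb after its end. All 13 rows between Alkbh5 and Llgl1 are pseudogenes, and none of them exceeded 0.411 FPKM in any library. Among members, levels ran from 0.0737 FPKM (Rnf112 in KO P12 replicate 1) to 116 FPKM (Mfap4 in WT P12 replicate 2). The median over members of a gene's median level was 11.4 FPKM, against 5.35 FPKM over all genes tested. Reads of some members cannot be assigned with certainty. Exonic bases are shared with a gene on the opposite strand in 17 members, and no source tells if counting was stranded. Mir6921, Mir5100 and Gm23341 are under 200 bases long and had between 3 and 18 counts per library, in a library type that does not capture short RNAs.

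The promoter sequences of 4 members that were several-fold lower in the P18 libraries without Alkbh5 transcript are shown because their values, which follow further on, were among the lowest relative to the libraries with it. Each spans 250 bases before to 50 bases after the start (RefSeq, GRCm38.p6), 5′ to 3′ on the gene's strand. Capitals mark GTTGCC or GTTGCT, half-sites of the RFX factors known from cilia genes, on either strand.
Med9os (chr11:59948098-59948397, minus strand): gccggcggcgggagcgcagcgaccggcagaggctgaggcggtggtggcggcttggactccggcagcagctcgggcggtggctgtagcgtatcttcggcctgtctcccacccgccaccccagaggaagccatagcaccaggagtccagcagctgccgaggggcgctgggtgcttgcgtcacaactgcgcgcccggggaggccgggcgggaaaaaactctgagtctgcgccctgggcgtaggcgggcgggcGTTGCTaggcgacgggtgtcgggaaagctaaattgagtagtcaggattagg
Drc3 (chr11:60353130-60353429, plus strand): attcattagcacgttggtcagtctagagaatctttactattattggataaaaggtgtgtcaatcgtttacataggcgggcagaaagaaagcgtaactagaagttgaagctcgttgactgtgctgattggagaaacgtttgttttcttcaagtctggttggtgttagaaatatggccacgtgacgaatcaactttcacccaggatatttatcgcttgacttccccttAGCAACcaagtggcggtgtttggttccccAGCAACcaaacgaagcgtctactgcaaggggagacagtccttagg
B9d1 (chr11:61504894-61505193, plus strand): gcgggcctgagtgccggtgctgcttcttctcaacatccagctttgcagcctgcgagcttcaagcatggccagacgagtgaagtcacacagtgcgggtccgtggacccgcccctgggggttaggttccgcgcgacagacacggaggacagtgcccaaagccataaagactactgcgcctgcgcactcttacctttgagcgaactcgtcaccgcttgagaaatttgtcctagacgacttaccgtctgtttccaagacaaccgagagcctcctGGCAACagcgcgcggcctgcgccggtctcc
Pld6 (chr11:59787608-59787907, minus strand): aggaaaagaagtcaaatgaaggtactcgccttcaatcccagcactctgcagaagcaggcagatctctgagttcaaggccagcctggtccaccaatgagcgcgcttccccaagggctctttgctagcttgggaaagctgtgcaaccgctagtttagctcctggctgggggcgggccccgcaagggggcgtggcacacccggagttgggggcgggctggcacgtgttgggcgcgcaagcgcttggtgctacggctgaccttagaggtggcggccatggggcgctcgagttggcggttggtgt

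Drc3 holds 2 such matches, Med9os and B9d1 1 each, and Pld6 0. A window was found for 32 of the 45 members. GTTGCC, the spelling searched first, was present in 3 of these, 2 of them among the 7 that were 2-fold lower without Alkbh5 transcript, and in 12.4% of the 32544 promoter windows of the mouse table. GTTGCT was added after the sequences were seen, and the matches of Drc3 and Med9os are of that spelling, so their presence supports nothing. With both spellings, a match was present in 7 of the 32 windows, in 4 of the 7 lower genes and in 25.02% of all windows. For the same reason these counts support nothing either. The hexamers CAACTG and TAACTG, known to be bound by MYB factors, and the related CAACGG and TAACGG were present on either strand in 7 of the 32 windows, in 1 of the 7 lower genes (Med9os) and in 28.3% of all windows. The windows of Med9os and Med9 share 166 bases, and both genes hold the same matches. A match is a run of letters and not a site of binding.

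The comparison of KO with WT at P12 asks whether the members' levels differed between Alkbh5-/- and wild-type testis. It cannot tell an effect of the allele from one of linked DNA or of cell make-up. No member passed the test at P12 (0 of 45 at an adjusted p under 0.05, edgeR quasi-likelihood test on the 4 P12 libraries), where the share called over all genes was 0.0539%, 9 of 16702. At an unadjusted p under 0.05 there were 6 members (13.3%, beside 13.6% of all genes). Of these, 3 were higher (6.67%, beside 5.32%) and 3 lower (6.67%, beside 8.27%) in KO. The libraries of KO and WT did not overlap in 22 members, or 48.9%, beside 45.8% of all genes. In 10 of them both KO libraries were higher (22.2%, beside 23.2%) and in 12 both were lower (26.7%, beside 22.6%). The median log2 difference of the members was -0.01, and 0.01 over all genes. Their median absolute log2 difference was 0.136, and 0.139 over all genes. Med9os was the sole member with a difference of 2-fold or more (2.22%, beside 5.19% of all genes). The difference was under 1.5-fold in 40 of 45 members (88.9%, beside 90.1% of all genes), and the 95% interval lay wholly within 1.5-fold in 30 (66.7%, beside 60.9%) and within 2-fold in 32 (71.1%, beside 78.9%).

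**Figure D1:**
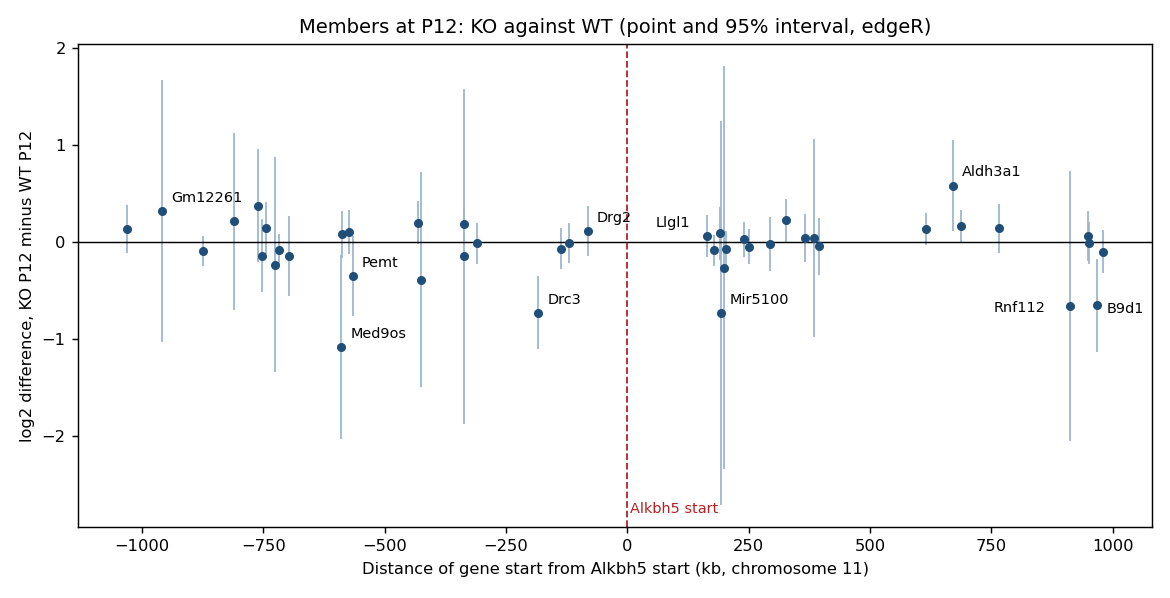
Log2 difference of KO P12 minus WT P12 for each of the 45 members (y axis, points, with 95% intervals from edgeR as bars) against the distance in kb of the gene's start from the Alkbh5 start (x axis, dashed line at 0). Drg2 and Llgl1, on either side of Alkbh5, lie at 0.12 and 0.06, and the points farthest from 0 are Med9os at -1.08 and Drc3 and Mir5100 at -0.73, of which Mir5100 has an interval of -2.71 to 1.25.

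The members nearest to Alkbh5 had near-equal levels in both genotypes. Drg2, which encodes a GTP-binding protein, had 15.5 and 13.4 FPKM in KO P12 and 13.95 and 13.0 FPKM in WT P12. The libraries overlapped, and the log2 difference was 0.12 ± 0.11 (SE, n = 2 each, adjusted p = 0.688), with a 95% interval of -0.14 to 0.38. Gid4, the substrate receptor of a ubiquitin ligase, had 12.8 and 14.5 FPKM in KO and 14.0 and 13.7 FPKM in WT, and its log2 difference was -0.01 ± 0.09. Atpaf2, an assembly factor of the mitochondrial ATP synthase, had 14.0 and 14.9 FPKM in KO and 15.3 and 15.2 FPKM in WT (-0.07 ± 0.09). Tom1l2, an endosomal trafficking gene, had 16.1 and 14.1 FPKM in KO and 15.3 and 15.5 FPKM in WT (-0.01 ± 0.09). On the other side, Llgl1, a cell polarity gene, had 26.2 and 30.7 FPKM in KO and 28.2 and 26.8 FPKM in WT (0.06 ± 0.09, 95% interval -0.15 to 0.28). Flii, an actin regulator of the gelsolin family, had 23.5 and 24.2 FPKM in KO and 25.5 and 25.6 FPKM in WT, so that both KO libraries were lower, by -0.09 ± 0.07 on the log2 scale. Mief2, an adaptor of mitochondrial fission, had 7.73 and 6.95 FPKM in KO and 7.14 and 6.80 FPKM in WT (0.09 ± 0.12). Of these 7 genes each interval excluded a 1.5-fold change. The short genes Mir5100 (4 and 9 counts in KO, 11 and 10 in WT) and Gm23341 (5 and 7 counts in KO, 7 and 7 in WT) were too shallow to place a difference.

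By distance from Alkbh5, the size of the P12 differences and the share of separated libraries ran in different directions. The median absolute log2 difference was 0.0748 for the 13 members within 300 kb, 0.149 for the 13 members between 300 and 600 kb and 0.141 for the 19 beyond 600 kb. In the windows of 2.1 Mb that adjoin the segment it was 0.155 (47 genes below) and 0.147 (29 genes above), and it was 0.132 for the 1252 tested genes elsewhere on chromosome 11. The libraries of KO and WT did not overlap in 61.5% of the members within 300 kb, 46.2% of those between 300 and 600 kb and 42.1% of those beyond 600 kb, beside 43.4% elsewhere on chromosome 11. Of the 8 separated members within 300 kb, Smcr8 alone was higher in KO and the rest were lower. Over all genes, 23.2% were higher and 22.6% lower. The lower ones include Mir5100 and Gm23341, which were too shallow to place a difference. Levels and errors differ between these sets, with a median of 13.9 FPKM and a median SE of 0.09 within 300 kb, against 4.08 FPKM and 0.149 in the upper adjoining window.

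Drc3 stood apart from its neighbours among the 10 members nearest to Alkbh5. Drc3 (chromosome 11, 60353329 to 60377278, plus strand) encodes a subunit of the nexin-dynein regulatory complex of cilia and flagella. It had 2.1 and 2.19 FPKM in KO P12, against 3.13 and 4.04 FPKM in WT P12. Both KO libraries were below both WT libraries, and the log2 difference was -0.73 ± 0.16 (SE, n = 2 each, adjusted p = 0.135, edgeR), with a 95% interval of -1.11 to -0.35. Drc3 did not pass in that test, but it was called by DESeq2 (-0.74, adjusted p = 0.00724), which called 653 genes in all, and with replicate number as a block in edgeR (-0.72, adjusted p = 0.0384), which called 439. It was the sole member called by either. The members between Drc3 and Alkbh5 are Atpaf2, Gid4 and Drg2, whose values are given above. Myo15, which is no member, also lies there, nearer to Alkbh5. It too was lower in both KO P12 libraries (log2 difference -0.78 with no level filter), as described below.

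The other members with the lowest p at P12 lay at various distances, and none passed. Med9os, a non-coding transcript that starts head to head with the Mediator subunit gene Med9, had 1.12 and 0.855 FPKM (40 and 30 counts) in KO and 2.26 and 1.98 FPKM (77 and 67 counts) in WT. Its log2 difference was -1.08 ± 0.40 (adjusted p = 0.314). B9d1, a gene of the ciliary transition zone, had 3.90 and 3.74 FPKM in KO and 5.09 and 7.10 FPKM in WT (-0.65 ± 0.20, adjusted p = 0.245). Pemt, which makes phosphatidylcholine from phosphatidylethanolamine, had 2.94 and 3.08 FPKM in KO and 3.56 and 4.20 FPKM in WT (-0.35 ± 0.17). Mprip, a partner of myosin phosphatase, was at -0.09 ± 0.07. In each of these 4 genes both KO libraries were below both WT libraries.

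On the higher side, Aldh3a1, an aldehyde dehydrogenase gene, had 3.53 and 2.97 FPKM in KO and 2.26 and 2.11 FPKM in WT (0.58 ± 0.20, adjusted p = 0.28). Its neighbour Aldh3a2, which oxidises fatty aldehydes, had 26.2 and 24.6 FPKM in KO and 22.7 and 23.1 FPKM in WT (0.16 ± 0.07). Srebf1 had 13.9 and 14.8 FPKM in KO and 12.9 and 12.5 FPKM in WT (0.19 ± 0.08), Rai1 13.1 and 15.6 FPKM in KO and 13.0 and 12.2 FPKM in WT (0.20 ± 0.09), and Tmem11, a mitochondrial inner membrane gene, 18.3 and 18.5 FPKM in KO and 16.4 and 15.3 FPKM in WT (0.23 ± 0.09). In all 5 genes both KO libraries were above both WT libraries, by less than 1.5-fold. Rai1 rested on single libraries, with 0.07 without KO replicate 2 and 0.31 without KO replicate 1. The adjusted p of these 9 genes lay between 0.245 and 0.598.

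By role, the P12 differences were small on both sides of 0. Of 8 genes for cytoskeleton, polarity and cilia, both KO libraries were lower in 4 and higher in 0 (22.6% and 23.2% of all genes were so), with log2 differences of -0.73 to 0.06. Of 6 lipid and one-carbon genes, 2 were lower and 3 higher (-0.35 to 0.58). Of 6 genes for mitochondria and genome maintenance, 2 were lower and 1 higher (-0.14 to 0.23). Of 6 signalling and growth genes, 0 were lower and 2 higher (-0.04 to 0.14), and of 6 transcription and ubiquitin genes, 1 was lower and 2 higher (-0.66 to 0.20). Of the 11 non-coding members and pseudogenes, 3 were lower and 2 higher (-1.08 to 0.38). None of these differences passed the test. The gene at -0.66 is Rnf112, which was low in all P12 libraries, at 0.0737 and 0.26 FPKM in KO and 0.237 and 0.297 FPKM in WT.

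Myo15, the protein-coding gene next to Alkbh5, was below the level filter and so no member. It is given here after its values were seen. It had 0.432 and 0.591 FPKM (374 and 512 counts) in KO P12, against 0.895 and 0.863 FPKM (746 and 714 counts) in WT P12. Both KO libraries were lower. In the edgeR fit with no level filter, which called 0 of 38163 genes, its log2 difference was -0.78 ± 0.18 (unadjusted p = 0.0143, adjusted p = 0.693). At P18 it had 0.35 and 0.445 FPKM in the libraries without Alkbh5 transcript and 0.301 and 0.377 FPKM in those with it, and these overlapped.

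Summed markers of late spermatocytes differed by genotype at P12, and those of spermatogonia overlapped. The summed level of 14 markers of pachytene and diplotene spermatocytes, 13 of which passed the level filter, was 68.5 and 78.2 FPKM in KO P12, against 140 and 200 FPKM in WT P12, and none of the 14 was at 0 in both libraries of a group. Cdc25c, Spag6 and Ccna1 overlapped between the genotypes at P12, and the rest of the list was lower in both KO libraries. The 10 spermatogonial markers summed to 313 and 362 FPKM in KO P12 and 347 and 342 FPKM in WT P12. The 10 Sertoli markers summed to 2231 and 1988 FPKM in KO P12 and 1845 and 1657 FPKM in WT P12. Of these, Clu alone had 1469 and 1225 FPKM in KO and 1210 and 1054.5 FPKM in WT. Wt1 and Rhox5 overlapped between the genotypes, and the rest of the Sertoli list was higher in both KO libraries. The part of these cell types in the differences of Drc3, B9d1, Med9os and Aldh3a1 was not tested.

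At P18, with KO compared with WT as labelled, 0 of 45 members passed in edgeR on the 4 P18 libraries, where the share called over all genes was 0%. There were 0 members at an unadjusted p under 0.05 and 129 genes in all (0.772%), and DESeq2 and limma also called 0 members. The 2 libraries of each label differ in Alkbh5 level, and the common dispersion was 0.405, against 0.0179 at P12. The groups did not overlap in 6 members (13.3%, beside 11.4% of all genes). Liver transcripts followed the P18 labels, with a summed level of 12 hepatocyte markers of 264 and 277 FPKM in KO P18 and 36.4 and 18.3 FPKM in WT P18. Of these, Apoc3 was at 0 in both WT P18 libraries. The part of this RNA in the members' values was not tested. Pemt, which liver is known to express at a high level, had 5.49 and 4.40 FPKM in KO P18 and 4.09 and 5.60 FPKM in WT P18, and Shmt1, the cytosolic enzyme that links serine to the folate cycle, had 12.5 and 14.6 FPKM in KO P18 and 13.1 and 14.5 FPKM in WT P18. The genotype by age interaction, fitted on all 8 libraries as labelled, called 0 members and 0 genes with edgeR. DESeq2 called 0 members there and 45 genes in all.

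Set out by Alkbh5 level, the P18 libraries differed in most genes. The libraries did not overlap in 36 members (80%, beside 79.7% of all genes). In counts scaled by library size, both libraries without Alkbh5 transcript lay below both libraries with it in 20 members (44.4%, beside 38.9% of all genes). They lay above both in 16 (35.6%, beside 40.8%). The larger side depended on the scaling. In FPKM more members lay above both than below both, and that share was not taken over all genes. A difference of at least 2-fold in mean log2 CPM (counts scaled by library size) without overlap was found in 10 members, or 22.2%, beside 21.5% of all genes. Of these 10, 9 were lower (20%, beside 18.3% of all genes) and 1 was higher (2.22%, beside 3.22%) in the libraries without Alkbh5 transcript. Rnf112 and 4930412M03Rik passed the level filter through the libraries with the transcript alone, and so had to differ. Among the 34 members with at least 1 FPKM in every library, 5 differed by 2-fold (14.7%, beside 12.9% of the 12378 genes at that level). The median log2 difference of the members was -0.09, and 0.04 over all genes. A 2-fold difference without overlap was found in 15.4% of the members within 300 kb of Alkbh5 (2 of 13). It was found in 15.4% of those between 300 and 600 kb (2 of 13) and in 31.6% of those beyond 600 kb (6 of 19). The share was 20.3% for tested genes elsewhere on chromosome 11.

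**Figure D2:**
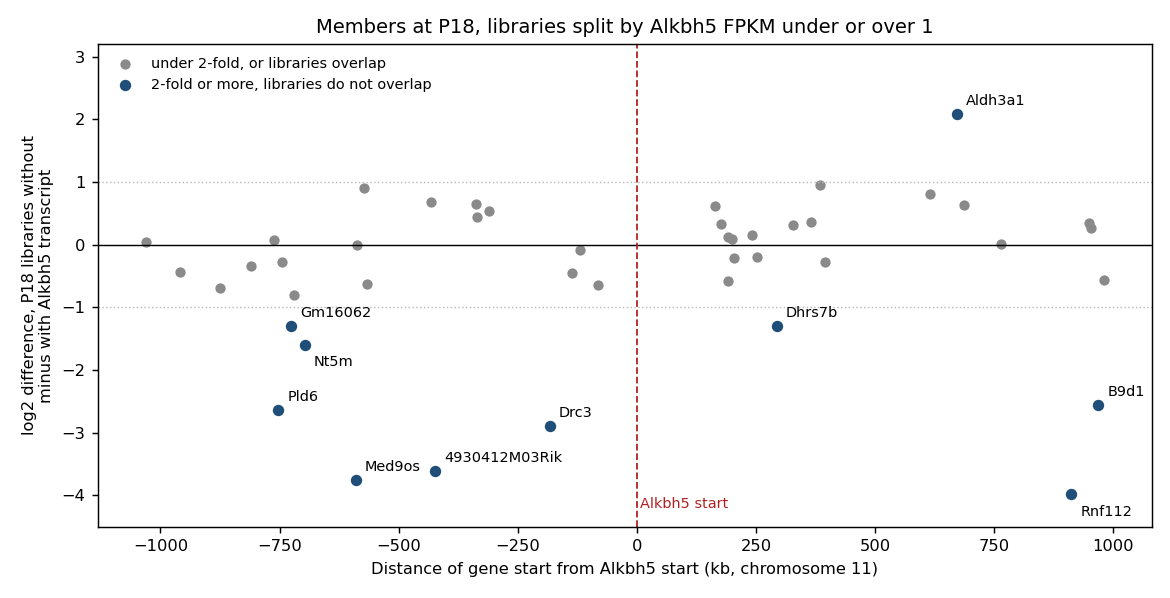
Difference in mean log2 CPM (y axis), P18 libraries without minus with Alkbh5 transcript, for each of the 45 members against the distance in kb of the gene's start from the Alkbh5 start (x axis, dashed line at 0). The 10 dark points differ by 2-fold or more (dotted lines at 1 and -1) without overlap between the libraries, and of these Drc3 and Dhrs7b are the ones within 300 kb of Alkbh5.

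Of the 8 genes for cytoskeleton, polarity and cilia, Drc3 and B9d1 differed by 2-fold or more at P18 and both were lower (2 of 8, beside 18.3% of all genes). Drc3 had 3.35 and 3.48 FPKM in the P18 libraries without Alkbh5 transcript, against 23.2 and 20.1 FPKM in those with it. B9d1 had 4.49 and 5.16 FPKM without and 24.3 and 24.1 FPKM with the transcript. In both genes the libraries without the transcript stayed near the WT P12 level, and the log2 differences were -2.89 and -2.55. The other members of the group differed by less than 2-fold, and in scaled counts 3 of them were higher without the transcript. Llgl1 had 27.4 and 29.6 FPKM without and 13.1 and 18.8 FPKM with it, Tom1l2 had 19.1 and 20.4 FPKM without and 10.5 and 12.8 FPKM with it, and Flii had 29.0 and 27.9 FPKM without and 17.8 and 20.6 FPKM with it. Mprip was lower without the transcript, with 20.9 and 20.7 FPKM, than with it, with 31.5 and 25.5 FPKM. Mfap4, an extracellular matrix gene of elastic fibres, had 61.3 and 71.2 FPKM without and 33.3 and 57.9 FPKM with the transcript. It was thus higher without the transcript in FPKM, while its scaled counts overlapped. Both sides were below its 107 and 107 FPKM in KO P12 and 92.2 and 116 FPKM in WT P12.

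Among 6 genes of mitochondria and genome maintenance, Pld6 and Nt5m were lower by more than 2-fold (2 of 6, beside 18.3% of all genes). Pld6 had 7.74 and 8.04 FPKM in the libraries without Alkbh5 transcript, against 40.3 and 43.3 FPKM in those with it, a log2 difference of -2.64. Nt5m, a mitochondrial deoxyribonucleotidase gene, had 4.08 and 4.15 FPKM without and 11.4 and 9.78 FPKM with the transcript. At P12 Pld6 overlapped between genotypes, with 7.46 and 9.86 FPKM in KO and 10.04 and 9.19 FPKM in WT. Top3a had 14.1 and 13.5 FPKM without and 13.2 and 14.0 FPKM with the transcript. Its FPKM values thus overlapped, while its scaled counts did not (log2 -0.22).

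Of the 6 lipid and one-carbon genes, 3 were higher and 3 lower in the libraries without Alkbh5 transcript in scaled counts, beside 40.8% and 38.9% of all genes. Shmt1, counted as lower at -0.20, overlapped on the FPKM scale, with 14.6 and 13.1 FPKM without and 12.5 and 14.5 FPKM with it. Aldh3a1 had 3.02 and 2.91 FPKM without and 0.501 and 0.67 FPKM with the transcript (log2 2.08). It was the sole member at least 2-fold higher without it in scaled counts, whereas on the FPKM scale there were 4 such members, with Rasd1, Usp22 and Map2k3os. The share over all genes was not taken on the FPKM scale. The all-gene median difference was 0.21 on log2(FPKM + 1), against 0.042 in scaled counts. Aldh3a2 had 21.1 and 20.1 FPKM without and 10.1 and 12.5 FPKM with it. Dhrs7b, which acts in peroxisomal ether lipid synthesis, had 3.98 and 4.85 FPKM without and 9.09 and 9.24 FPKM with it. Srebf1 had 13.3 and 13.7 FPKM without and 6.11 and 8.75 FPKM with it.

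Of the 6 transcription and ubiquitin genes and the 6 signalling genes, Rnf112 alone differed by 2-fold or more in scaled counts. Over all genes, 21.5% did so without overlap. Rnf112 passed the level filter through the libraries with Alkbh5 transcript alone, and so had to differ. On the FPKM scale Rasd1 (2.21-fold) and Usp22 (2.04-fold) also differed by 2-fold or more, and the share over all genes was not taken on that scale. Rnf112, a RING finger gene, had 0.627 and 0.202 FPKM without and 6.34 and 3.84 FPKM with the transcript. Usp22 had 47.1 and 48.9 FPKM without and 20.05 and 27.0 FPKM with it, and Rai1 had 9.47 and 10.6 FPKM without and 4.78 and 5.93 FPKM with it. Rasd1, a Ras-like GTPase gene induced by glucocorticoids, had 30.3 and 30.7 FPKM without and 12.4 and 15.2 FPKM with it. In WT P12 it had 15.5 and 15.3 FPKM. Between the P18 libraries without the transcript and WT P12, Rasd1 and Gm16062 were the 2 members that differed by 2-fold or more. They make up 4.44% of the members, beside 5.95% of all genes that did so. Drg2 and Gid4, the nearest members, were at -0.65 and -0.09 on the log2 scale. Drg2 had 13.8 and 13.8 FPKM without and 18 and 18.7 FPKM with the transcript. Gid4 had 15.0 and 15.5 FPKM without and 12.7 and 14.9 FPKM with it. Its side thus depended on the scale, higher without the transcript in FPKM and lower in scaled counts.

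Of the 11 non-coding members and pseudogenes, 3 were lower by more than 2-fold (beside 18.3% of all genes), 1 of which, 4930412M03Rik, passed the level filter through the libraries with the transcript alone. Med9os had 2.41 and 2.41 FPKM without Alkbh5 transcript, against 34.4 and 24.0 FPKM with it, and 4930412M03Rik had 0.546 and 0.509 FPKM without and 7.80 and 4.31 FPKM with it. Gm16062, with 28 and 22 counts without and 48 and 56 counts with the transcript, was the third. Map2k3os, an antisense neighbour of the MAP kinase kinase gene Map2k3, was higher without the transcript (1.69 and 1.97 FPKM) than with it (0.847 and 0.745 FPKM).

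**Figure D3:**
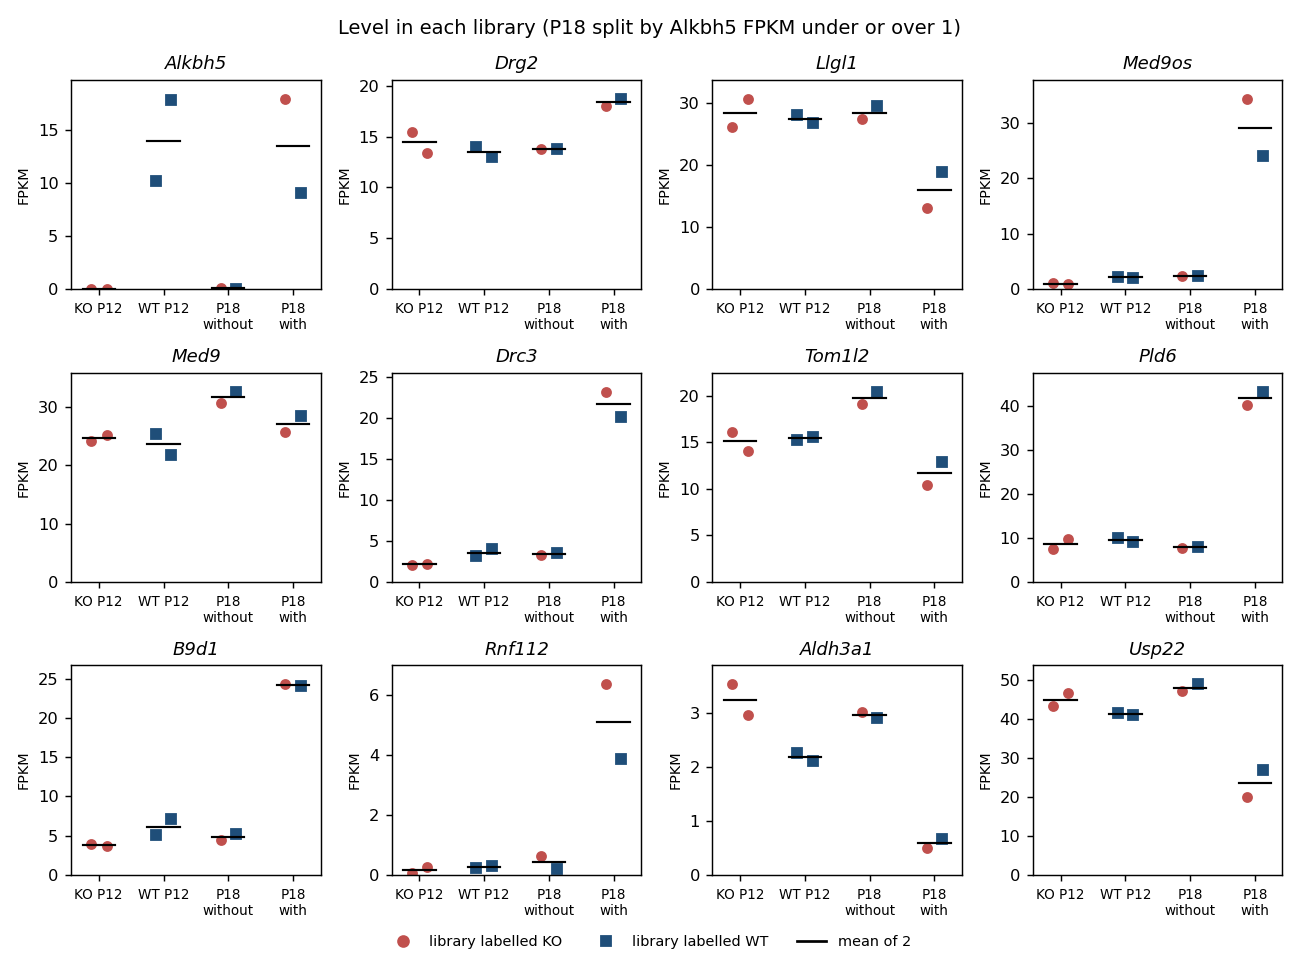
FPKM (y axis) of Alkbh5 and 11 members in each of the 8 libraries (circles, labelled KO; squares, labelled WT; bars, mean of 2), in the order KO P12, WT P12, P18 without and P18 with Alkbh5 transcript. Drg2 and Llgl1 have near-equal levels in KO P12 and WT P12, while Med9os, Drc3, Pld6, B9d1 and Rnf112 are high in the 2 P18 libraries with the transcript and Aldh3a1 and Usp22 are low there. Rnf112 passed the level filter through the P18 libraries with the transcript alone.

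The P18 libraries with Alkbh5 transcript also had far more late spermatocyte RNA. The 14 pachytene and diplotene markers summed to 204 and 189 FPKM in the libraries without the transcript, against 2409 and 1863 FPKM in those with it. Of the latter, Ldhc alone had 841 and 672 FPKM. Cdc25c went the other way, with 1.71 and 1.67 FPKM without and 1.48 and 1.29 FPKM with the transcript. Spag6 overlapped, and the rest of the list was higher with the transcript. The 10 Sertoli markers summed to 1948 and 2114 FPKM without and 787 and 1086 FPKM with it, and the 7 Leydig markers to 258 and 269 FPKM without and 95.4 and 122 FPKM with it. None of these markers was at 0 in both libraries of a labelled group. The part of cell make-up in the members' P18 differences was not tested. Over the members, the median absolute log2 difference from WT P12 was 0.231 in the P18 libraries without the transcript and 0.514 in those with it, beside 0.226 and 0.547 over all genes.

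The P12 and P18 comparisons share no library, and members that were apart in both mostly moved the same way. In 19 members the libraries did not overlap at either age, and in 18 of them KO at P12 and the libraries without Alkbh5 transcript at P18 lay on the same side. Of these, 9 were lower at both ages (20%, beside 15.8% of all genes) and 9 higher at both (20%, beside 15.3%). Flii was the exception, lower in KO at P12 and higher without the transcript at P18 (2.22%, beside 3.14%). Of the genes apart at both ages, 94.7% of members thus lay on the same side, beside 81.5% of all genes (5188 of 6364).

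**Figure D4:**
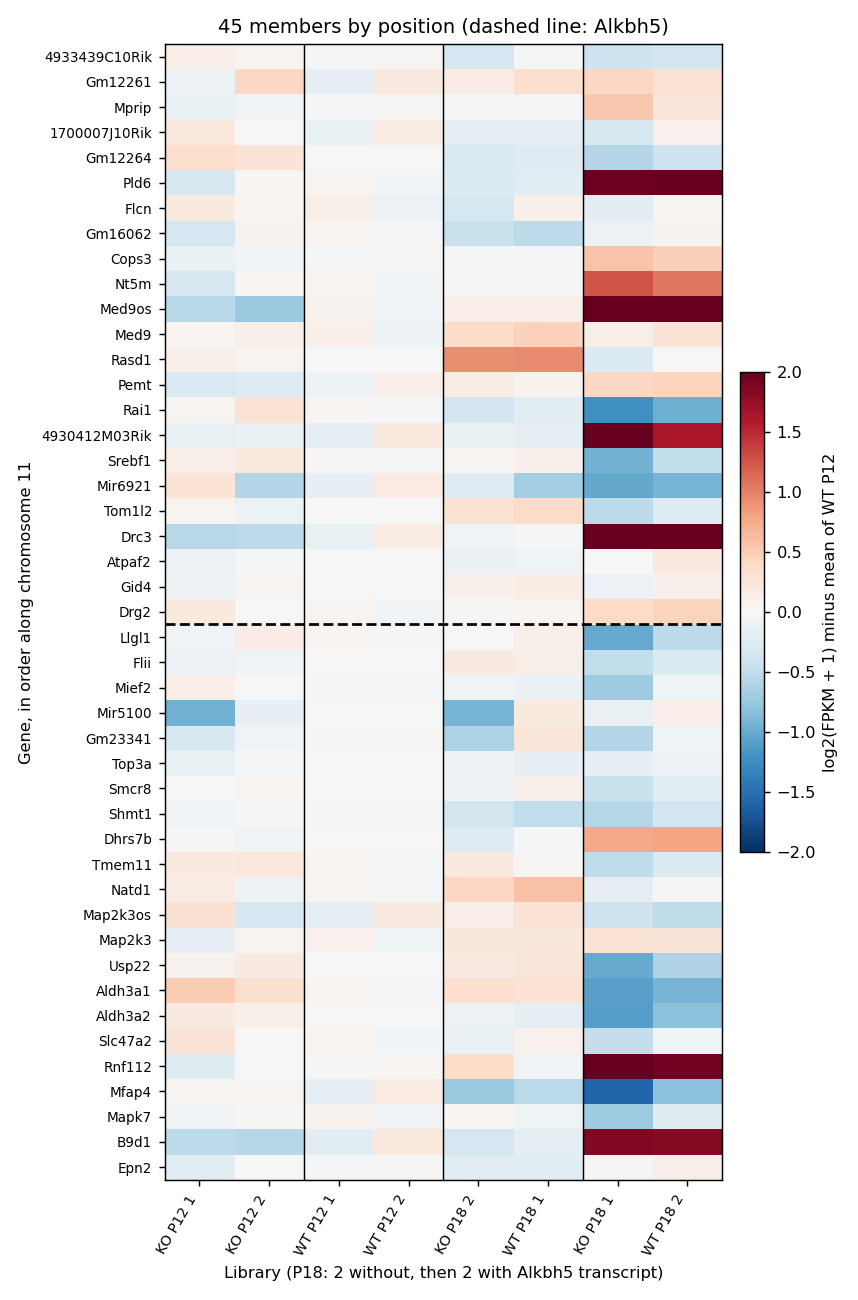
Log2(FPKM + 1) minus the mean of the WT P12 libraries (colour) for the 45 members in order along chromosome 11 (rows, dashed line at Alkbh5) in the 8 libraries (columns). The strong colours lie in the last 2 columns, KO P18 replicate 1 and WT P18 replicate 2, on both sides of Alkbh5, and Rasd1 is raised in KO P18 replicate 2 and WT P18 replicate 1.

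Some neighbours with opposed starts lay on different sides at P18 in scaled counts with no overlap of libraries. These were Tom1l2 with Drc3, Map2k3os with Map2k3, and Top3a with Smcr8. In FPKM Top3a overlapped. Flcn and Med9 overlapped in scaled counts, so their pairs are not among these. There were 9 pairs of members on opposite strands whose starts lie within 1500 bases, and in 2 of them the genes overlap. Flcn, a growth regulator of the mTORC1 pathway, and Gm16062 have 63 bases between them and differed by -0.27 and -1.30. Med9os and Med9, which share promoter bases and motif matches, are 64 bases apart. Med9os differed by -3.76 on the log2 scale between the libraries without and with Alkbh5 transcript, and Med9 by -0.01, with 30.8 and 32.7 FPKM without and 25.7 and 28.5 FPKM with the transcript. Tom1l2 and Drc3 are 423 bases apart and differed by 0.53 and -2.89. Map2k3os and Map2k3 are 165 bases apart and differed by 0.94 and -0.28. Top3a and Smcr8, a partner of C9ORF72 in autophagy, are 158 bases apart and differed by -0.22 and 0.15. Cops3, a subunit gene of the COP9 signalosome, and Nt5m, which overlap at their starts, were both lower without the transcript, at -0.80 and -1.59.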

How the data were processed

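Per the submitters' processing notes, cutadapt 1.9, HISAT2 2.2.1, StringTie 2.1.6 and GRCm38 were used. The tool behind the counts and the strand setting are not given in the sources used here. The deposited table holds an FPKM value and a whole-number count per gene and library. The deposited FPKM values served to filter and describe, and the deposited counts to test.

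Genes with at least 1 FPKM in at least 2 of 8 libraries were tested over the whole table (16702). Counts were scaled by TMM and tested with the two-sided edgeR 4.0.16 quasi-likelihood test (R 4.3.3), on the 4 libraries of an age alone, with Benjamini-Hochberg adjustment over all genes tested. Standard errors were taken from the log2 difference and its F statistic. The edgeR script was tested on data simulated with a dispersion near that at P12 (0.0179). The dispersion of the P18 libraries as labelled was 0.405, so the simulation does not bear on the P18 test. For P18 by Alkbh5 level, means of log2 CPM (prior count 2) were compared with no test. DESeq2 1.42.0, limma 3.58.1 on log2(FPKM + 1), other scalings, filters and windows, replicate number as a block and leaving out each library were alternatives. Precision is limited by 2 libraries per group and by 58417668 to 71537841 counts per library.

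The genes named are the 5 nearest members on each side of Alkbh5, any member called, the 5 higher and 5 lower with the lowest p at P12, and the 5 higher and 5 lower with the largest P18 difference by Alkbh5 level, with others given by role. Members, lists and tests were chosen with earlier results of these data known. Positions match GENCODE M21 for 40 of the 45 members.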

Additional observations from a re-analysis of the deposited data

How the results depend on the processing

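With 2 libraries per group, small differences cannot be resolved. Where 1 library is left out, the lone library of its group is assumed to vary like the other group. No member was called at P12 or at P18 as labelled in most alternatives. The exceptions at P12 were DESeq2 and the replicate block, which each called 1 member, Drc3. Leaving out single P12 libraries called 0 members. Drc3 then ranged from -0.90 to -0.54 (adjusted p 0.0909 to 0.811), B9d1 from -0.87 to -0.40 and Aldh3a1 from 0.44 to 0.70. Calls over all genes at P12 were 0 with all 8 libraries, with limma at either pseudocount and with no filter, 25 with library totals, 83 at 5 FPKM or more, 439 with the replicate block and 653 with DESeq2, and 6 to 207 without single libraries (9 in the main test). At P18 as labelled they were 114 with DESeq2 and 0 to 0 without single libraries. The replicate numbers were not shown to pair the libraries (correlation of deviations -0.00465 at P12 and -0.91 at P18), and pairing the P18 libraries across numbers, chosen after seeing the data, called 89 genes. The block left 0 calls among members at P18 and in the interaction.

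The members' median at P12 was -0.0607 to -0.00019 without single libraries. The cause of this and the other shifts was not tested. At P18 as labelled it was -0.10 with limma and -0.10 with library totals, and -0.141 to -0.0265 without single libraries. By Alkbh5 level it was -0.12 with RLE scaling, 0.12 with library totals, 0.14 on log2(FPKM + 1), 0.15 on log2(FPKM + 0.1), -0.034 at 5 FPKM or more, 0.0392 within 600 kb and -0.182 to 0.0265 without single libraries. The all-gene median was 0.25 with library totals, 0.21 on log2(FPKM + 1), 0.271 on log2(FPKM + 0.1), 0.01 with RLE scaling and 0.025 at 5 FPKM or more, and the members' median lay below it in each of these 5 settings. Members separated by 2-fold were 6 of 34 at 5 FPKM or more (17.6%, beside 18.9% of all genes). Within 600 kb they were 4 of 26, beside 21.5% of all genes. They were 13 with library totals (28.9%, beside 25.6%) and 12 on log2(FPKM + 0.1) (26.7%, beside 25.1%). Without single libraries they were 10 to 11, beside 19.8% to 27.9% of all genes. Values near 0 at P12 turned sign. Gid4 was at 0.0057 and Tom1l2 at 0.00128 with all 8 libraries. Without single libraries Gid4 spanned -0.106 to 0.0675, Tom1l2 -0.127 to 0.0752, Drg2 -0.00058 to 0.21, Llgl1 -0.0607 to 0.165 and Mief2 -0.00019 to 0.159. The alternatives for single members at P18 as labelled were not run, as no such value is reported.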
